A study of Rattus norvegicus with 20 samples.

Results

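The genes described here encode enzymes of cholesterol synthesis: Acat2, Hmgcs1, Idi1, Fdps, Fdft1, Sqle, Lss and Cyp51. They were taken as a list of 8 genes, and all probe sets (groups of short probes that together read 1 transcript) annotated to 1 of them alone were used. Of the 8 genes, 7 had such probe sets, 20 in all among the 8740 tested on the array, and Hmgcs1 was not analysed here. Cyp51 had 5 probe sets, Fdft1 4, Fdps 3, Lss 3, Acat2 2, Idi1 2 and Sqle 1. Genes of cholesterol uptake enter below only as a list for comparison.

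Total RNA came from rat dorsal root ganglia of the operated side, and each of 20 samples was read on 1 Affymetrix rat array. The rats had a chronic constriction injury (CCI), in which the sciatic nerve is loosely tied, a Seltzer operation, given in the labels as transection surgery of the sciatic nerve, or a sham operation. The CCI groups hold 3 arrays at 14 days and 3 at 21 days, with the titles of the latter spelled CC1. The Seltzer groups hold 2 arrays at 14 days, 3 at 21 days and 2 at 50 days, and the sham groups match these numbers. The labels name no strain, sex or age of the rats, no level of the ganglia and no pooling, so the p-values measure a spread between samples that may be technical. The study compared each pain model with sham surgery over time.

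Cells make cholesterol from acetyl-CoA through mevalonate, isoprenoid diphosphates and squalene, which is closed into a sterol ring and trimmed. Most enzymes of the route are switched on together by the transcription factor SREBP-2 when membranes of the endoplasmic reticulum run low in sterol. In peripheral nerve the route is known mainly for supplying myelin membrane made by Schwann cells, and sensory neurons and satellite glia use it for membranes too.

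The stretches upstream of the genes are shown because SREBP-2 acts there together with the factors NF-Y and Sp1. RefSeq promoters (assembly GRCr8) were matched for 6 of the 8 genes, namely Acat2, Hmgcs1, Idi1, Fdps, Cyp51 and Lss. The 250 bases before the annotated start are printed for Idi1, Fdps and Cyp51, the genes among these with a probe set past the threshold in a comparison, and for Acat2, the only one with a match to the core of the sterol element. Capitals mark letters that match, on either strand, the Sp1 motif (GGGCGG), the NF-Y motif (CCAAT) or that core (CACNCCAC). The stretches are written in the direction in which the gene is read.
Acat2 (chr1:50100590-50100839, + strand): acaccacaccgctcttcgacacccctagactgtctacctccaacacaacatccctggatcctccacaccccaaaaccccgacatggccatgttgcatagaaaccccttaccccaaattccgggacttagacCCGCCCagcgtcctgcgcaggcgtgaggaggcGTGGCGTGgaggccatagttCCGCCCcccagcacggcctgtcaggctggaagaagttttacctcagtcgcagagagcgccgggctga
Idi1 (chr17:66547525-66547774, - strand): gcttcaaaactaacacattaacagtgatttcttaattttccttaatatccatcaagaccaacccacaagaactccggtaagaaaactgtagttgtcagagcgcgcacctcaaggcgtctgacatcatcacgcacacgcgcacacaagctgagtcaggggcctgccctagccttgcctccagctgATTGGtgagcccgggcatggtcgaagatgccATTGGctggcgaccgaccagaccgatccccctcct
Fdps (chr2:176804817-176805066, - strand): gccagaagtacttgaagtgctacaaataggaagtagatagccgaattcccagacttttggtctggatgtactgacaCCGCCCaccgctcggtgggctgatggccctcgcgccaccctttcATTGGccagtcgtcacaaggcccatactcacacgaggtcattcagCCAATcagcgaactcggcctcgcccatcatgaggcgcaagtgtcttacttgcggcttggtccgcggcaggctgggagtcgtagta
Cyp51 (chr4:30991443-30991692, + strand): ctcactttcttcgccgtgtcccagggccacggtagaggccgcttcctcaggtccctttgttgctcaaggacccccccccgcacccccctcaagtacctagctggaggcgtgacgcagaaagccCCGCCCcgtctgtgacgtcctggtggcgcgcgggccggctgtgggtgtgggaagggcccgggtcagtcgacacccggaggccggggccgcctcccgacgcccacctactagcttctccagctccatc

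The motifs were searched in 300 bases, from 250 before to 50 after each start. The 1 longer spelling of the sterol element that was searched (TCACNCCAC) matched in none of the 6 promoters and in 1.12% of all 33469 promoters in the table. Its core matched in Acat2 alone, 87 bases before the start on the reverse strand, and in 5.8% of all promoters. The NF-Y motif matched in Idi1, Fdps, Hmgcs1 and Lss and in 37.5% of all. In Idi1 the matches began 66 and 35 bases before the start, and in Fdps 130 and 85 bases before it. The Sp1 motif matched in Acat2, Fdps, Cyp51, Hmgcs1 and Lss and in 33.1% of all. These are matches of letters in 1 window, not measured binding sites. Sterol elements of any other spelling were not searched for, so a promoter without a match may still hold one.

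All values are deposited intensities on a linear scale, which can be below 0. Changes are differences of log2(intensity + 16), with values below 0 set to 0, and a probe set was called changed at a limma p-value below 0.05 after Benjamini-Hochberg adjustment over 8740 probe sets. Each array's negative values, taken without sign, gave its background level as their 95th percentile. Array medians lay between 43.2 and 76.7, and the number of arrays limits the precision throughout. Background was highest in the Seltzer group of 50 days, at 596 and 765, followed by replicate 1 of CCI at 21 days, at 499, and it was 169 to 325 on the remaining 17 arrays. The 3' to 5' signal ratio of the actin control, which grows as RNA breaks down or is copied incompletely, was 3.94 and 9.88 on those 50-day arrays and at most 2.40 on the other 18. The same ratio for GAPDH was 1.16 and 1.29 there and 1.68 to 3.52 on the others. Sensory neuron markers Nefl, Nefm and Nefh and the Schwann cell markers Pmp22 and Prx were above background on all 20 arrays. The Schwann cell marker Mbp was above it on 16.

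None of the 20 probe sets was above background on every array, 10 were above it on at least 10 arrays, and 4 (3 of Lss and 1 of Fdft1) on none. Of all tested probe sets, 67.6% were above background on no array. Other rat loci are annotated as pseudogene copies of Fdps (5), Acat2 (2), Cyp51 (1) and Idi1 (1), whose transcripts the probes might also bind.

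**Figure D1:**
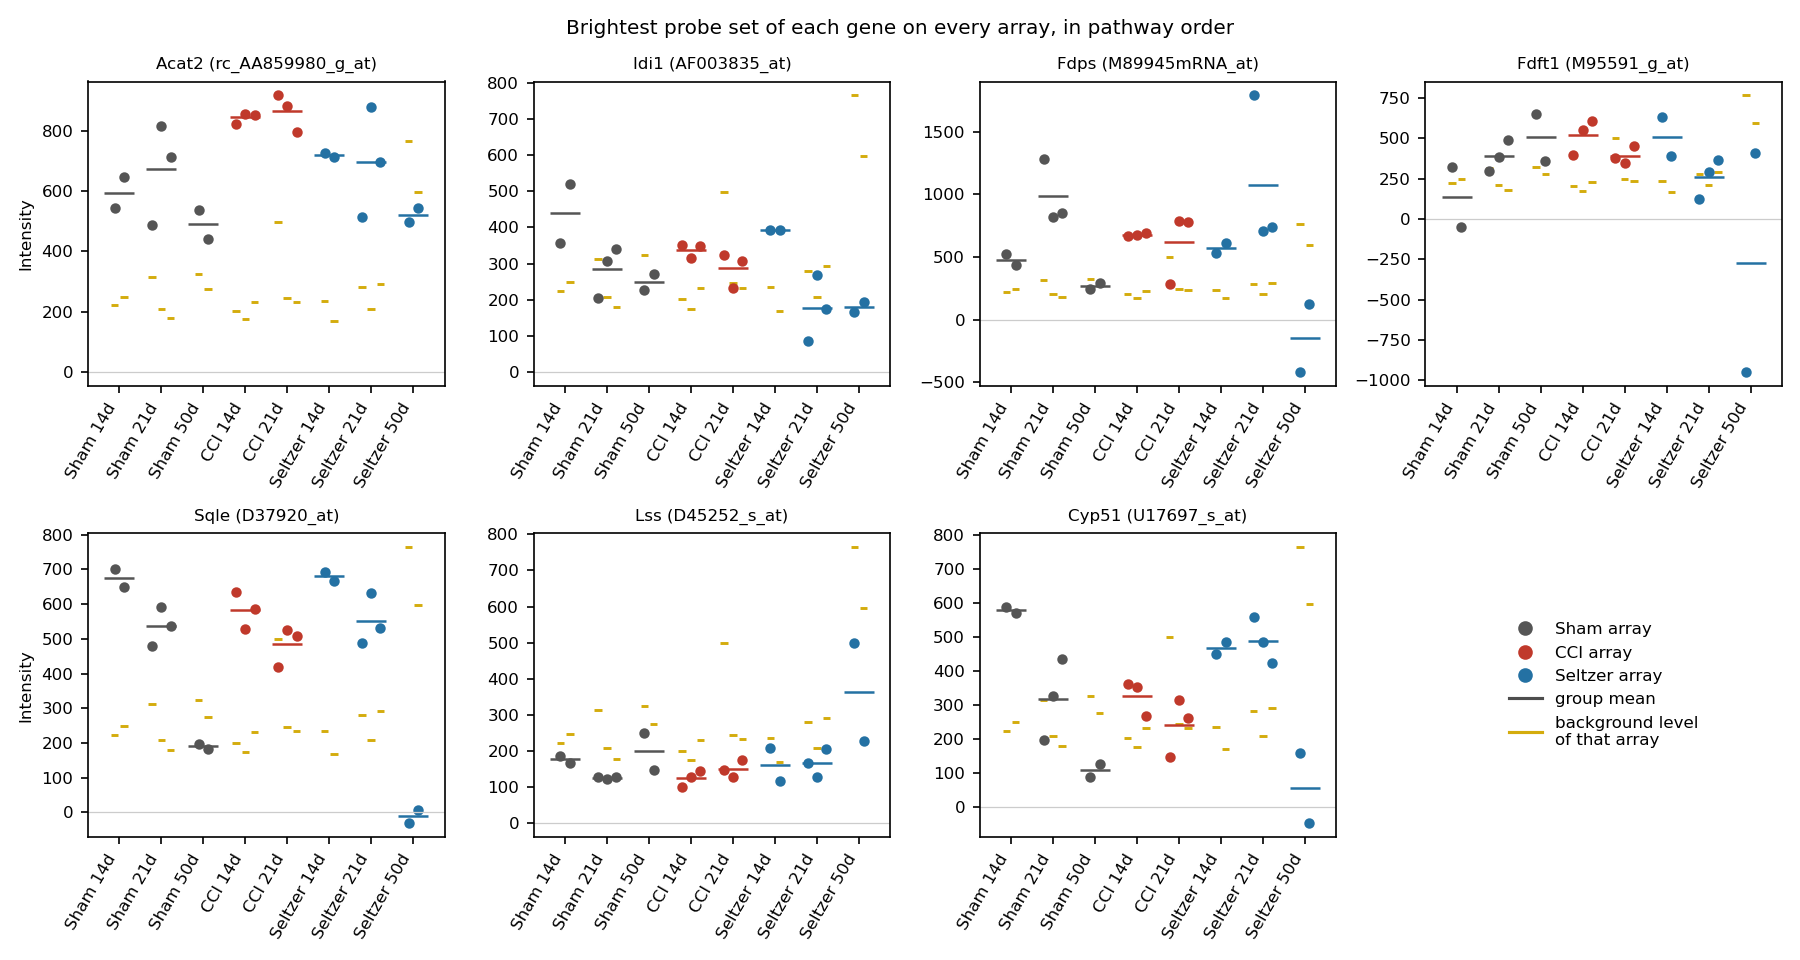
Intensity (linear scale) of the brightest probe set of each of the 7 measured genes on all 20 arrays, ordered along the pathway, with days after surgery on the horizontal axis. Points are arrays, coloured lines are group means, and yellow ticks give each array's background level. For these probe sets of Acat2, Fdps, Sqle and Cyp51 the 2 lowest group means were those at 50 days, with overlap to earlier groups for Acat2. No Lss value lies above its tick.

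Acat2 encodes the cytosolic acetyl-CoA acetyltransferase that joins acetyl-CoA units at the start of the route. Its brighter probe set, rc_AA859980_g_at, read 824, 857 and 852 on the CCI 14-day arrays and 917, 883 and 794 on the CCI 21-day arrays. Sham arrays read 542 and 646 at 14 days and 489, 815 and 711 at 21 days. The CCI arrays lay above all sham arrays at 14 days, while at 21 days 1 CCI array lay below the highest sham array. The change was 0.50 (SE 0.21) at 14 days and 0.39 (SE 0.19) at 21 days. As a mean over both days it was 0.44, with a 95% interval of 0.14 to 0.75, an unadjusted p of 0.00809 and an adjusted p of 0.183, so it was not called. The change at 14 days passed with array weights (adjusted p = 0.0308) and without the 21-day replicate 1 arrays (adjusted p = 0.0355), and in no other alternative. The latter setting was added after seeing the data and leaves out no 14-day array. In Seltzer ganglia the same probe set read 726 and 712 at 14 days and averaged 696 ± 182 (SD, n = 3) at 21 days, with changes of 0.27 and 0.05. At 50 days it read 538 and 442 in sham and 496 and 543 in Seltzer ganglia, which overlapped. The dimmer probe set, rc_AA859980_at, changed by 0.38 and 0.34 in CCI at 14 and 21 days and was not called either.

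Idi1 encodes isopentenyl-diphosphate isomerase, which interconverts the isoprenoid building blocks. The brighter of its probe sets, AF003835_at, read 357 and 520 in sham, 391 and 393.5 in Seltzer and 351, 314 and 347 in CCI ganglia at 14 days. The CCI arrays lay just below both sham arrays, with a change of -0.34 (adjusted p = 0.943). At 21 days the means were 284 ± 70.3 in sham, 287 ± 48.8 in CCI and 176 ± 91.9 in Seltzer ganglia (SD, n = 3 each). The widest of these gaps from sham, in Seltzer at 21 days, was -0.74 (95% interval -1.39 to -0.08) with an adjusted p of 0.647. The groups of each model overlapped with sham at 21 days.

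The second Idi1 probe set, rc_AI045395_at, gave the sole call among the 20 in CCI against sham at 14 days. It read 252 and 306 in sham and 67, 97 and 66 in CCI ganglia, with no overlap. The change was -1.68 (SE 0.35, adjusted p = 0.0204), and sham was at least 1.38-fold brighter, a bound because CCI was below background on all 3 arrays. Seltzer ganglia at 14 days read 262 and 267, beside sham. At 21 days all 9 arrays were below background, with 22, 61 and 33 in sham, 97, 78 and 63 in CCI and 11, 46 and 47 in Seltzer ganglia. Within sham the probe set fell by 2.48 from 14 to 21 days (SE 0.35, adjusted p = 0.00146). The CCI change at 21 days was 0.84 (adjusted p = 0.322), and the difference between the CCI changes at 21 and 14 days was 2.52 (adjusted p = 0.0136).

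The call at 14 days changed with the sham arrays used as control. Against the 21-day sham arrays the same CCI arrays differed by 0.80 in the other direction (adjusted p = 0.602), and against both sham groups as 1 control by -0.19 (adjusted p = 1). It was also lost when either 14-day sham array or CCI replicate 1 or 3 was left out, with adjusted p-values from 0.076 to 0.163. Of 18 alternatives 9 kept it, and their adjusted p-values ran from 0.000653 to 1. Over all probe sets the CCI 14-day arrays correlated with the sham 14-day arrays at a median r of 0.907 and with the sham 21-day arrays at 0.939. The Seltzer 14-day arrays, which read 262 and 267 for this probe set, correlated with the sham 14-day arrays at 0.935 and with the CCI 14-day arrays at 0.919. The summed intensity of 15 skeletal muscle markers was 12465 to 14109 on the CCI 14-day arrays and 6186 to 7014 on the sham arrays of that day, with 2 of the 15 called higher. That of 8 macrophage markers was 2462 to 3224 against 1333 to 1842, with 1 called higher. Their part in the result was not tested.

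Fdps encodes farnesyl diphosphate synthase, which makes the last precursor shared by sterols and the isoprenoid anchors of proteins. Its probe set M89945mRNA_g_at read 654 and 584 in sham, 658, 696 and 832 in CCI and 548 and 580 in Seltzer ganglia at 14 days. At 21 days it read 606, 772 and 902 in sham, 465, 689 and 962 in CCI and 932, 686 and 763 in Seltzer ganglia. The groups overlapped at 21 days, and the changes at both days were between -0.15 and 0.22. The 95% intervals reached from -0.73 to 0.77 on the log2 scale. The probe set of highest mean, M89945mRNA_at, spread more widely at 21 days: replicate 1 of each group read 1285 in sham, 284 in CCI and 1792 in Seltzer ganglia, while the other 6 arrays lay between 704 and 850. The expressed-sequence probe set rc_AI180442_at averaged 367 ± 86.6 in sham, 521 ± 81.8 in CCI and 509 ± 20.2 in Seltzer ganglia at 14 days (SD, n = 2, 3 and 2). Its changes of 0.49 in CCI (adjusted p = 0.66) and 0.47 in Seltzer ganglia (adjusted p = 1) were not called. At 21 days the CCI arrays at 514, 490 and 590 lay above the sham arrays at 403, 482 and 469, with a change of 0.23 (adjusted p = 0.762).

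Fdft1 encodes squalene synthase, the enzyme that commits farnesyl units to sterols. Probe set M95591_g_at read 393, 554 and 608 in CCI and 631 and 387 in Seltzer ganglia at 14 days, against 324 and -48 in sham. The changes of 2.83 (95% interval 0.16 to 5.51) and 2.79 (95% interval -0.14 to 5.72) were not called, with adjusted p-values of 0.413 and 1. Both share the 1 sham array whose value was set to 0. At 21 days it averaged 389 ± 95.9 in sham, 391 ± 54.5 in CCI and 259 ± 125 in Seltzer ganglia (SD, n = 3 each), and the groups overlapped. Its other probe sets were above background on 9 arrays (rc_H33426_at), 1 array (M95591_at) and no array (rc_H33426_g_at), and none was called in any comparison.

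Sqle encodes squalene epoxidase, a rate-controlling enzyme of the sterol branch. At 14 days its probe set D37920_at read 701 and 650 in sham, 634, 528 and 585 in CCI and 693 and 668 in Seltzer ganglia. At 21 days it read 480, 593 and 537 in sham, 420, 525 and 508 in CCI and 488, 631 and 533 in Seltzer ganglia. The CCI arrays lay below the sham arrays at 14 days, and the other comparisons at these days overlapped. The changes in CCI were -0.21 (95% interval -0.56 to 0.14) at 14 days and -0.15 (95% interval -0.45 to 0.17) at 21 days. In Seltzer ganglia they were 0.01 (95% interval -0.37 to 0.39) and 0.03 (95% interval -0.28 to 0.34). No interval reached a change of 1 on the log2 scale, which is a doubling or halving.

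Lss encodes lanosterol synthase, which closes the sterol ring, and Cyp51 encodes the demethylase that next acts on lanosterol. None of the Lss probe sets rose above background on any array, so no level or fold is given. The brightest, D45252_s_at, lay between 102 and 498. The brightest Cyp51 probe set, U17697_s_at, read 588 and 570 in sham, 360, 352 and 267 in CCI and 449 and 486 in Seltzer ganglia at 14 days. Sham lay above both models without overlap, by 1.79-fold over CCI and 1.24-fold over Seltzer ganglia. The changes, -0.81 (SE 0.70) and -0.30 (SE 0.77), were not called. At 21 days the sham arrays at 195, 325 and 435 overlapped with CCI at 145, 313 and 262, and with Seltzer ganglia at 560, 484 and 424. The other Cyp51 probe sets were above background on 13 arrays (rc_AA963449_s_at), 7 (rc_AI230255_at), 4 (AB004096_at) and 2 (rc_AA997614_s_at), and none was called at 14 or 21 days.

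**Figure D2:**
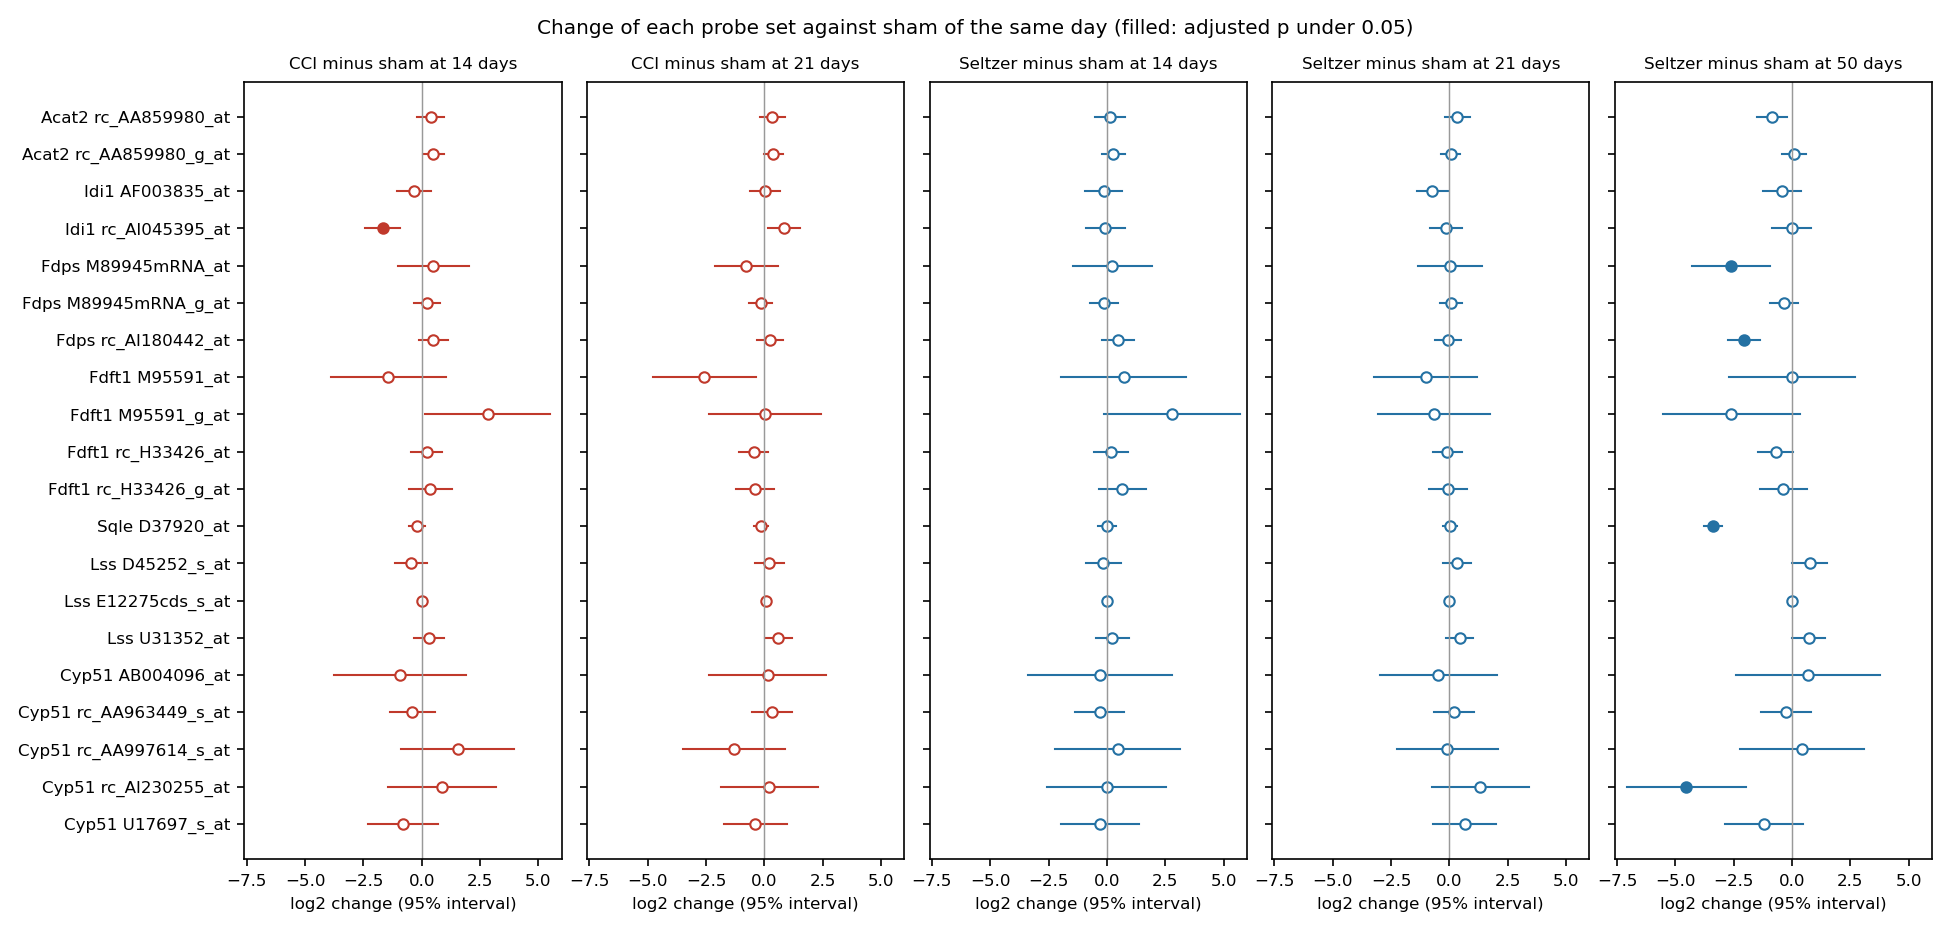
Change against sham of the same day (log2 scale, with the 95% interval as a line) for the 20 probe sets in pathway order, 1 panel per comparison. Filled points passed an adjusted p of 0.05: 1 in CCI at 14 days, none in CCI at 21 days or Seltzer ganglia at 14 and 21 days, and 4 in Seltzer ganglia at 50 days.

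Over the 20 probe sets, 1 was called in CCI at 14 days, beside 2.78% of all probe sets, and none at 21 days, beside 0.927%. In Seltzer ganglia none was called at 14 days (0.206% of all) or at 21 days (0.378% of all). None passed in the mean over both days for CCI (2.29% of all) or Seltzer ganglia (0.297% of all), or between the models (0.927% of all). For the change in effect from 14 to 21 days, 1 was called in CCI (1.8% of all) and none in Seltzer ganglia (0.149% of all). At an unadjusted limma p under 0.05 there were 3 of 20 in CCI at 14 days (10.6% of all), 3 at 21 days (12.3% of all) and 3 in the CCI mean (10.7% of all). In Seltzer ganglia there were 0 at 14 days (3.78% of all), 1 at 21 days (6.6% of all) and 0 in the mean (4.77% of all). Between the models there was 1 (8.98% of all), for the change in the CCI effect 1 (11.4% of all) and for that in the Seltzer effect 0 (3.59% of all). Within sham there was 1 from 14 to 21 days (12% of all) and 6 from 21 to 50 days (19.7% of all). Seltzer against sham at 50 days gave 7 (29.7% of all).

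The median change of the 20 probe sets was 0.22 and 0.06 in CCI at 14 and 21 days and 0.07 and 0.01 in Seltzer ganglia, and that of all probe sets was 0.00 in each. Groups did not overlap for 11 of the 20 in CCI at 14 days (5 higher and 6 lower), beside 41.4% of all probe sets. In CCI at 21 days the count was 4, beside 14.2%. Among Seltzer ganglia it was 10 at 14 days, beside 35.6%, and 1 at 21 days, beside 10.4%. The models share their sham arrays, so their values are not independent of each other.

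Most calls among the 20 probe sets involved the 50-day groups. Between sham at 21 and 50 days Sqle fell from 480, 593 and 537 to 197 and 183, a change of -1.42 (SE 0.16, adjusted p = 0.000142) and at least 1.79-fold. Fdps M89945mRNA_g_at fell from 606, 772 and 902 to 82 and 111, a change of -2.78 (SE 0.25, adjusted p = 2.42e-05) and at least 2.51-fold. Both were below background on both 50-day sham arrays, and the groups did not overlap. Idi1 rc_AI045395_at rose by 1.77 (SE 0.35, adjusted p = 0.00814), to 163 and 164, still below background. The Idi1 call was lost without either 50-day sham array (adjusted p = 0.0632 and 0.0601) and with only these groups fitted (0.111), within a range of 0.00117 to 0.111 over 15 alternatives. The Sqle call was lost with 1 added before the log (adjusted p = 0.174) and kept in the other 14 alternatives, and that of Fdps was kept in all 15. The 3 calls of 20 stand beside 7.46% of all probe sets called and 2.57% from 14 to 21 days, where 1 of the 20 was called. Groups did not overlap for 10 of the 20 from 21 to 50 days, beside 42.2% of all, and for 7 from 14 to 21 days, beside 33.6%.

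Probe sets of the same gene gave unlike values over this step, a difference that was not tested. Fdps rc_AI180442_at changed by 0.12 (95% interval -0.50 to 0.74) from sham 21 to 50 days, with 423 and 570 at 50 days, above background on both arrays. M89945mRNA_at changed by -1.78 (adjusted p = 0.171). For Cyp51, U17697_s_at changed by -1.39 and rc_AI230255_at by 1.91 over the same step, and neither was called. Acat2 rc_AA859980_g_at changed by -0.42 and rc_AA859980_at by 0.70, and neither was called.

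**Figure D3:**
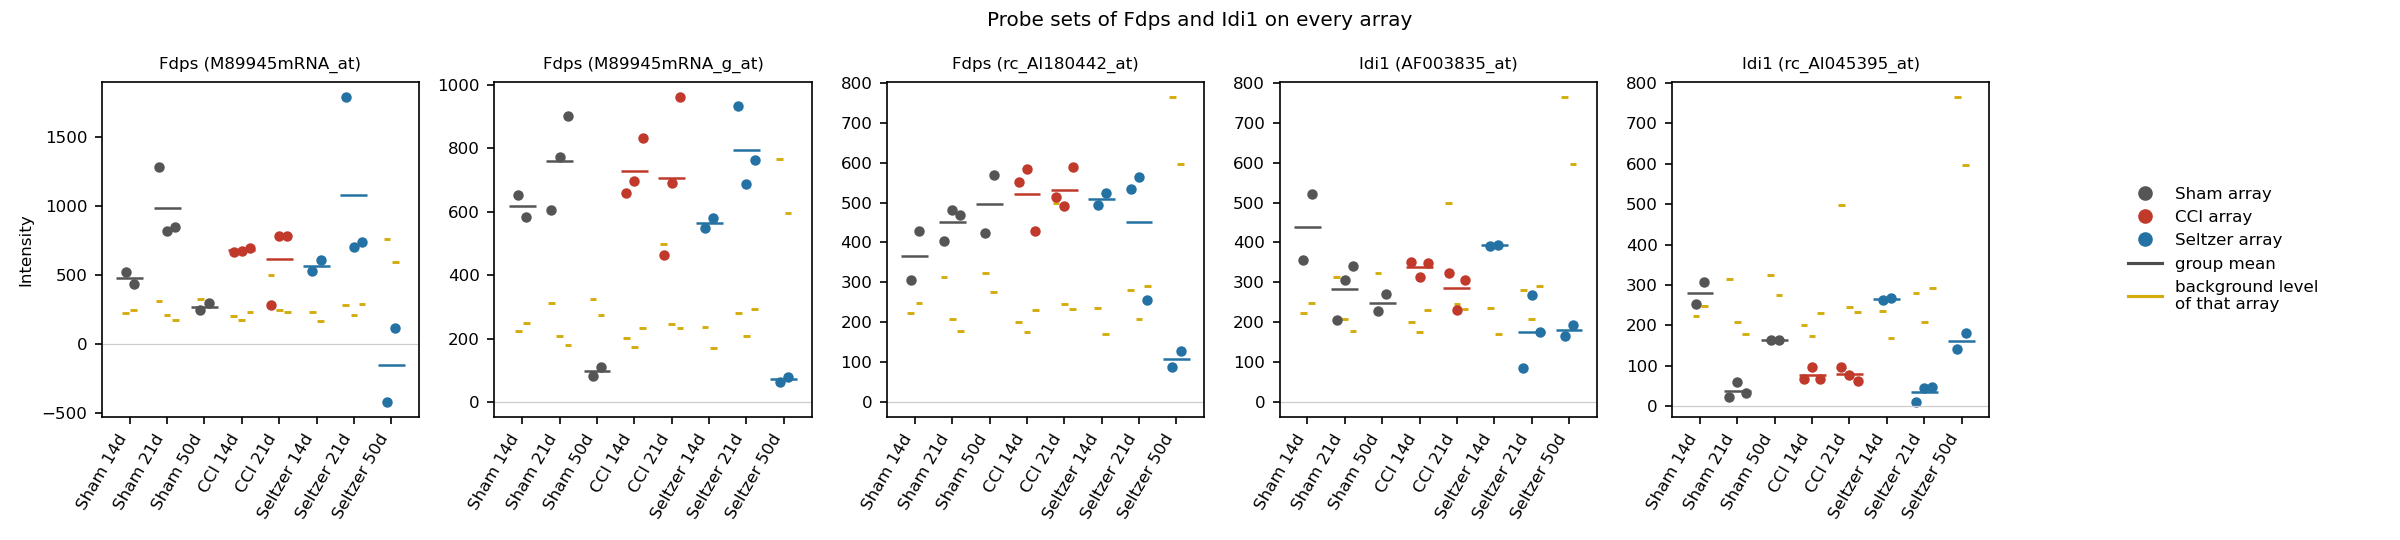
Intensity (linear scale) of the 3 Fdps and 2 Idi1 probe sets on all 20 arrays by surgery and day, with group means as lines and each array's background level as a yellow tick. In sham at 50 days the M89945 probe sets of Fdps are low while rc_AI180442_at stays at 423 and 570.

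In Seltzer against sham at 50 days, 4 of the 20 probe sets were called, all lower, beside 15.9% of all probe sets. Fdps rc_AI180442_at read 88 and 128 against 423 and 570, a change of -2.05 (SE 0.31, adjusted p = 0.00084). It was lost with only these groups fitted (adjusted p = 0.0742) and kept in the other 13 alternatives. Fdps M89945mRNA_at read -418 and 121 against 247 and 295, a change of -2.61 (adjusted p = 0.037), and with the replicate number as a block its adjusted p was 0.0524. Without Seltzer replicate 1 the change was -1.07 (adjusted p = 0.324), and without sham replicate 1 or 2 the adjusted p was 0.11 or 0.162. It ran from 0.000816 to 0.407 over 14 alternatives, of which 7 kept the call. Cyp51 rc_AI230255_at read -484 and -60 against 336 and 377 (change -4.54, adjusted p = 0.0209), a call lost without any 1 of the 4 arrays, with adjusted p-values from 0.0773 to 0.101. Over its 14 alternatives they ran from 0.000173 to 0.101. The remaining probe sets of Fdps and Cyp51 were not called, and none was above background on any 50-day array. Fdps M89945mRNA_g_at changed by -0.35. For Cyp51, U17697_s_at changed by -1.20 and rc_AA963449_s_at by -0.26, while AB004096_at changed by 0.69 and rc_AA997614_s_at by 0.42.

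Sqle read -32 and 8 on the Seltzer arrays against 197 and 183, a change of -3.40 (SE 0.18, adjusted p = 6.00e-08). Neither group was above background on any array, so no fold is given, and the size of the change moved with the number added before the log, from -6.01 with 1 to -1.91 with 64. No fold can be given for the other 3 either, since their Seltzer values lay below the raised background of 596 and 765 on these arrays, which were also the arrays of high actin ratio. For Fdps M89945mRNA_at sham replicate 1, at 247, also lay below its background of 325. For Cyp51 rc_AI230255_at both Seltzer values were set to 0, so its change is the distance of the sham values from the number added. That change ran from -8.48 to -2.71 over 14 alternatives. Probe sets of Acat2, Idi1, Fdft1 and Lss were not called, but with the replicate number as a block Acat2 rc_AA859980_at, at -0.86, went from an adjusted p of 0.0726 to 0.0461. With quantile normalization this probe set and Fdft1 rc_H33426_at passed, both lower (adjusted p = 0.0132 and 0.0206). Groups did not overlap for 12 of the 20, 11 of them lower, beside 70.5% of all probe sets. The median change was -0.36.

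Of 15 skeletal muscle markers, 6 were called lower from sham 21 to 50 days, and 7 higher in Seltzer against sham at 50 days. Their summed intensity was 6283 to 6563 in sham at 21 days, 1912 to 2244 in sham at 50 days and 5351 to 6776 in Seltzer ganglia at 50 days. Of 8 myelinating Schwann cell markers, 2 were called lower from sham 21 to 50 days, Mbp and Mal, and none was called in the comparisons of either model with sham. Summed levels of those 8 were 13105 to 22046 in sham at 21 days, 10874 to 12189 in sham at 50 days and 14332 to 14594 in Seltzer ganglia at 50 days. The sum for 10 sensory neuron markers was 34006 to 36943 in sham and 28414 to 30442 in Seltzer ganglia at 50 days, with 1 called higher and 2 lower. Of 8 macrophage markers 2 were called higher in Seltzer against sham at 50 days, Cd14 and Ctss, with summed levels of 1416 to 1852 against 920 to 1212. Of 6 repair Schwann cell markers 2 were called lower, Ngfr and Ncam1, with summed levels of 1714 to 2293 against 3224 to 3902. Many of these markers were below background on every array of a 50-day group. In sham and Seltzer ganglia this held for 12 and 13 of the 15 muscle markers, so their calls rest partly on values under background. For the 8 myelinating markers the counts were 2 and 4, and for the 10 neuron markers 0 and 1. In each of the 2 groups it held for 6 of the 8 macrophage and 5 of the 6 repair Schwann cell markers. The part of these tissues and cell types, of the background level and of RNA quality in the 50-day values was not tested. In bulk tissue, fewer cells of a type and less RNA per cell cannot be told apart.

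A test for any difference among the 8 groups passed for 6 of the 20 probe sets, beside 24.2% of all. These were Sqle (adjusted p = 3.45e-09), the 3 of Fdps (adjusted p from 3.38e-06 to 0.0089), Cyp51 U17697_s_at (0.0319) and Idi1 rc_AI045395_at (0.000371). With the replicate block Cyp51 U17697_s_at no longer passed (adjusted p = 0.0688) and Lss D45252_s_at did (adjusted p = 0.0282). The Cyp51 call was also lost with 1 added before the log (adjusted p = 0.131). Without the 50-day arrays 1 of the 20 passed. Group means of Sqle ran, from the highest, Seltzer 14 days, sham 14 days, CCI 14 days, Seltzer 21 days, sham 21 days, CCI 21 days, sham 50 days and Seltzer 50 days. The values of neighbours in that order overlapped except between sham and CCI at 14 days, CCI at 21 days and sham at 50 days, and the 50-day pair. For Acat2 the order ran from CCI at 21 days, at 865 ± 63.5 (SD, n = 3), to sham at 50 days, at 490 ± 67.7 (SD, n = 2), and neighbours overlapped except CCI and Seltzer at 14 days.

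No test of joint movement was run, and the 7 genes ran both together and apart. Over the 8 group means the log2 levels of their brightest probe sets gave 21 pairs with Pearson r from -0.94 to 0.95 and a median of 0.48, and 15 were above 0. Over all 8 groups Lss ran opposite to Sqle (r = -0.91) and Fdps (r = -0.94), while Sqle and Fdps ran together (r = 0.95). Without the 50-day groups the median of the 21 pairs was -0.15 and 8 were above 0. For Lss, r was then 0.43 with Sqle and -0.44 with Fdps, and for Sqle with Fdps it was -0.47. Lss was above background on no array, so its r values describe signal under background. Probe sets of the same gene gave 24 pairs with a median r of 0.53, and 0.33 without the 50-day groups. These values describe few points that share arrays. The mean log2 level of the 7 genes was 8.49, 8.68 and 8.07 in sham at 14, 21 and 50 days, 8.78 and 8.59 in CCI at 14 and 21 days, and 8.88, 8.63 and 6.72 in Seltzer ganglia at 14, 21 and 50 days.

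Among 1120 other genes above background on at least 10 arrays, the profiles closest to that mean over the 8 groups were Tmbim6 (r = 0.991), Rpl23 (0.990), Kxd1 (0.988), Ldhb (0.985) and Gpx1 (0.983). The most opposite were Stard3 (-0.995), Hyal2 (-0.991), Hes3 (-0.990), Pcdhga11 (-0.989) and Mgst2 (-0.987). Stard3, which encodes a cholesterol transfer protein of late endosomes, had log2 levels between 8.44 and 8.98 in 7 groups and 9.77 in Seltzer ganglia at 50 days. Without the 50-day groups 0 of the 5 closest and 1 of the 5 most opposite genes were again among the 5, as with Spearman's rho over all 8 groups. Over the 6 other groups r was 0.579 to 0.683 for the 5 closest and -0.964 to -0.660 for the 5 most opposite.

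The other genes of the route are given by their brightest probe sets. Of 14 other synthesis enzymes 8 were measured. In CCI at 14 days 1 of the 8 was called higher, Mvd, the mevalonate diphosphate decarboxylase (2.94, adjusted p = 0.0227), at 93.1 to 127.5 against -92.6 and -32.5 in sham. Mvd was above background on none of the 20 arrays, and in sham it was called higher at 21 than at 14 days (2.77) and lower at 50 than at 21 days (-2.77). In Seltzer at 50 days 1 of the 8 was called higher, the sterol isomerase Ebp (2.65), again above background on no array. Msmo1, a sterol methyl oxidase, was above background on all 20 arrays. It averaged 1170 ± 12.5 in sham and 1402 ± 72.7 in CCI ganglia at 14 days (SD, n = 2 and 3) and 1120 ± 123 and 1308 ± 70.8 at 21 days (SD, n = 3 each). Its changes of 0.26 and 0.23 in CCI were not called (adjusted p = 0.4 and 0.387). In CCI at 21 days and in Seltzer ganglia at 14 and 21 days none of the 8 was called.

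**Figure D4:**
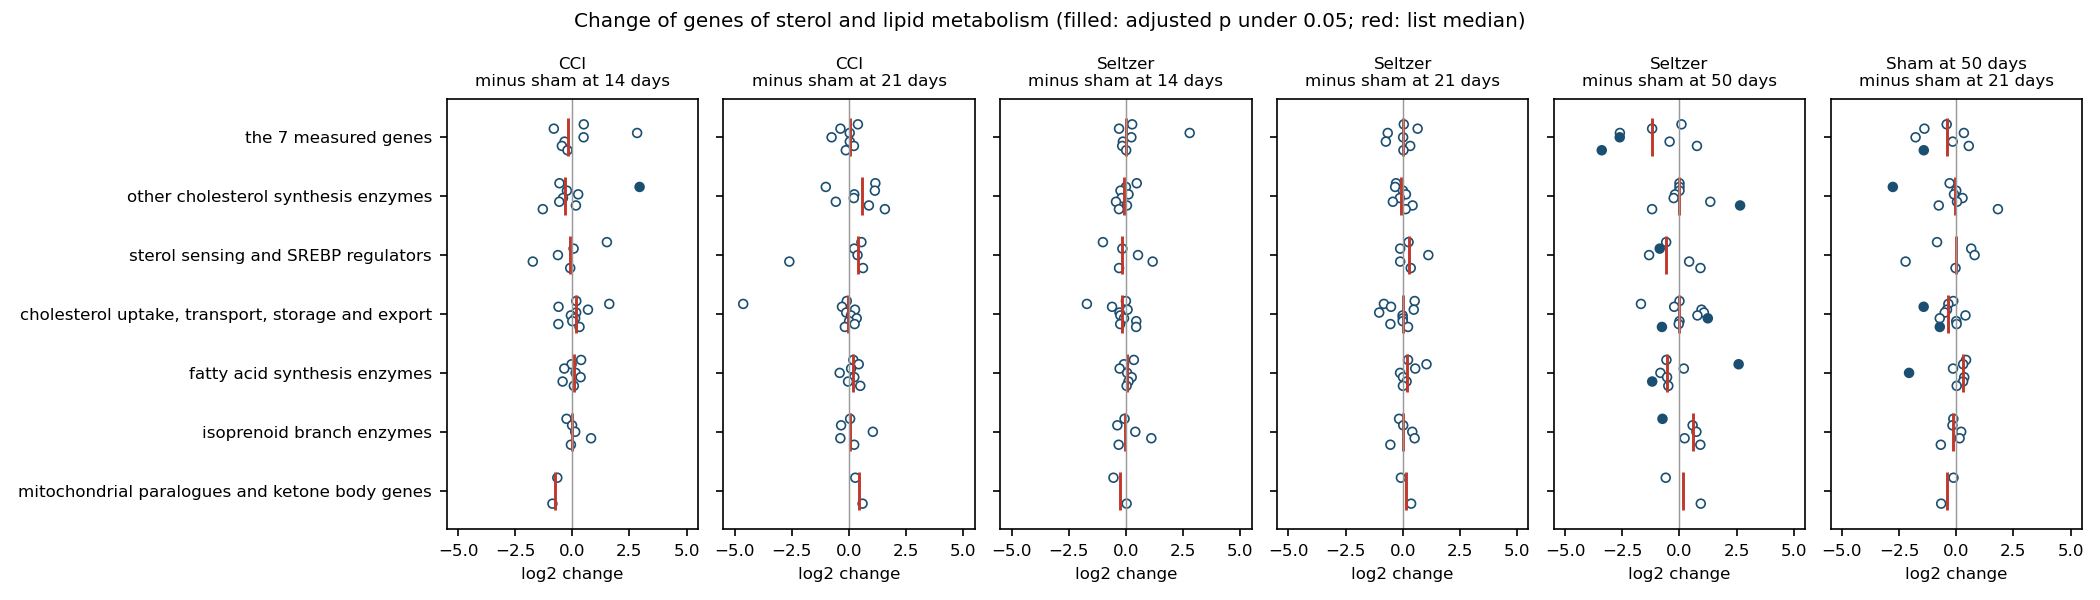
Change (log2 scale) of the brightest probe set of each gene, by list and comparison, with filled points for an adjusted p under 0.05 and red lines for list medians. Filled points at 14 and 21 days are confined to Mvd in CCI at 14 days, and the others lie in the 50-day panels.

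Of 10 regulators of sterol sensing 5 were measured, and 1 was called in the comparisons with sham: Insig1, which holds SREBP in the endoplasmic reticulum, was lower in Seltzer ganglia at 50 days (-0.86, adjusted p = 0.0251). It read 378 and 478 there, below background, against 732 and 844 in sham. Of 22 genes of uptake, transport, storage and export 10 were measured, and none was called at 14 or 21 days. In Seltzer ganglia at 50 days the sterol hydroxylase Cyp27a1 was higher (1.24, adjusted p = 0.0255; above background on 3 of 20 arrays) and the acyl-CoA binding protein Dbi lower (-0.77, adjusted p = 0.0192). From sham 21 to 50 days Dbi (-0.72, adjusted p = 0.0278) and the lysosomal lipase Lipa (-1.43, adjusted p = 0.017) were called lower. The brightest probe set of Apoe, a lipid carrier protein, was above background on all 20 arrays and was called in none of the comparisons with sham.

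Of 12 fatty acid synthesis enzymes 7 were measured, and none was called at 14 or 21 days. In Seltzer ganglia at 50 days the elongase Elovl5 was lower (-1.19, adjusted p = 0.0115), at 915 and 1303 against 2506 and 2531 in sham, and above background on all 4 arrays. Acaca was higher there (2.59, adjusted p = 0.032) but above background on no array. The desaturase Scd was lower in sham at 50 than at 21 days (-2.06, adjusted p = 0.00655), with 122 and 236 against 629 to 1058. Of 9 genes of the isoprenoid branch 5 were measured, and Fnta, a subunit of protein farnesyltransferase, was called lower in Seltzer ganglia at 50 days (-0.74, adjusted p = 0.0331). Of 5 genes of mitochondrial paralogues and ketone bodies 2 were measured, Acat1 and Bdh1, and neither was called.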

How the data were processed

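The deposited table holds linear intensity values of 20 arrays, made by the authors with software, scaling and background steps not given in the sources used here, and with values below 0. Control probe sets (59) were left out, leaving 8740. Gene names are those of the platform annotation given with the table, brought up to date through Entrez identifiers: 7006 probe sets had 1 symbol, 308 several and 1426 none.

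Negative values were replaced by 0 before 16 was added and the log2 taken. limma 3.58.1 (R 4.3.3, statmod 1.5.0) fitted 8 group means with 12 residual degrees of freedom, and p-values were two-sided and Benjamini-Hochberg adjusted. The fit was tested on simulated data. A fold is the ratio of geometric means where every array of both groups was above background. It is given as "at least" where the brighter group was above background on all arrays, the dimmer group on none, and the bound was 1 or more. Otherwise none is given.

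The genes and lists were chosen with earlier results of these data known. All probe sets of the 7 genes are described, the one with the highest mean standing for its gene, with list genes past the threshold or of smallest p, and the 5 most alike and most opposite profiles. Apoe was named after its values were seen.

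Deviations of the same replicate number correlated at 0.299, 0.226 and 0.11 between Seltzer and sham arrays at 21 days, above the 0.1 set for pairing. The reported fit did not use this pairing, so its Seltzer p-values at 21 days are unpaired. CCI and sham arrays at 21 days gave 0.0606, 0.0881 and 0.0931. CCI and Seltzer arrays gave 0.0535 and 0.153 at 14 days and 0.0195, 0.101 and -0.0053 at 21 days. The block fits the same shift for a number in all groups. The labels of some CCI arrays call the number a lot batch without saying of what. Alternatives were another number added, quantile normalization, median centring, the dimmest 33.3% left out, only the groups compared, no 50-day arrays, the block, trend and robust settings, array weights, both sham groups as 1 control, and each array left out. The 21-day replicate 1 arrays left out together and the 21-day sham arrays as control of CCI at 14 days were added after seeing the data. Where a group was left with 1 array, it was assumed to vary like the others.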

Additional observations from a re-analysis of the deposited data

Results flagged for a closer look

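The change of the Idi1 probe set rc_AI045395_at in CCI against sham differed between the days by 2.52 on the log2 scale (limma adjusted p = 0.0136), being -1.68 at 14 days and 0.84 at 21 days. The CCI arrays read 67, 97 and 66 at 14 days and 97, 78 and 63 at 21 days, and the sham arrays 252 and 306 at 14 days and 22, 61 and 33 at 21 days. All CCI arrays at 14 days lay below, and all at 21 days above, the sham arrays of their day. The other Idi1 probe set, AF003835_at, changed by -0.34 and 0.03.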

How the results depend on the processing

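Among the 20 probe sets, the comparisons with 0 calls (CCI at 21 days, Seltzer at 14 and 21 days, both means, CCI against Seltzer, and the Seltzer effect over time) had 0 under each alternative run. CCI at 14 days, with 1 call, gave 0 with 1 added before the log, quantile normalization, median centring, both sham groups as 1 control, or the 21-day sham arrays as control (Idi1 rc_AI045395_at then at 0.80, turned), 2 with array weights or without the 21-day replicate 1 arrays, and 0 to 1 without single arrays. Seltzer at 50 days (4) gave 2 with only the groups compared and 2 to 5 without single arrays, with Cyp51 U17697_s_at gained without Seltzer replicate 1 (adjusted p = 0.00118) and Lss D45252_s_at and Fdft1 M95591_g_at gained without replicate 2 (0.0334 and 0.0235). The change in CCI effect (1) gave 0 with 1 added or median centring, and 0 without sham 14-day replicate 2. Sham from 14 to 21 days (1) gave 0 with only the groups compared. From 21 to 50 days (3) it gave 6 with array weights and 5 without the 21-day replicate 1 arrays, and 2 with 1 added (Sqle lost), with only the groups compared or without either 50-day sham array (Idi1 rc_AI045395_at lost in each). The test over 8 groups (6) gave 1 without the 50-day arrays and 10 with array weights. Cyp51 U17697_s_at was lost there with 1 added (adjusted p = 0.131) and, among other single arrays, without CCI 14-day replicate 1 or 2 (0.0526 each). Without Seltzer 21-day replicate 1 or 2 it was lost too (0.0528 and 0.0518). Idi1 AF003835_at (0.0355 and 0.0121) and Acat2 rc_AA859980_g_at (0.0258 and 0.0346) were gained in those 2 fits. The replicate block left these counts at 1, 4, 1, 1, 3 and 6 but exchanged calls: at 50 days Fdps M89945mRNA_at was lost (adjusted p = 0.0524) and Acat2 rc_AA859980_at gained (0.0461), and in the test over 8 groups Cyp51 U17697_s_at was lost (0.0688) and Lss D45252_s_at gained (0.0282). It changed no other call. In Seltzer at 50 days Acat2 rc_AA859980_at was also gained with quantile normalization (adjusted p = 0.0132) and median centring (0.0401). Quantile normalization gained Fdft1 rc_H33426_at there as well (0.0206). Fdps M89945mRNA_at was also lost there with 1 or 64 added before the log (0.053 and 0.0516). Causes were not tested, except that fewer arrays or groups entered some fits. Signal near background limits Lss and most 50-day values.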
